A study of Mus musculus with 8 samples.

Results

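The enzymes that modify and cross-link collagen were followed in Lewis lung carcinoma (LLC) cells, an established mouse lung cancer line, with and without factor inhibiting HIF (FIH, gene *Hif1an*) and at high or low oxygen. The members are 10 genes taken by symbol from the table of 53700 genes. They are *P4ha1*, *P4ha2* and *P4ha3*, which encode the catalytic subunits of collagen prolyl 4-hydroxylase, *Plod1*, *Plod2* and *Plod3*, the lysyl hydroxylases, and *Lox*, *Loxl1*, *Loxl2* and *Loxl3*, of the lysyl oxidase family. RNA-Seq was performed on 8 libraries in 4 groups of 2: WT cells in normoxia (21% O2), WT cells in hypoxia (1% O2), FIH-KO cells in normoxia and FIH-KO cells in hypoxia, each cultured for 16 hours. All of them were LLC cells grown in the same serum-containing medium with no drug. The FIH-KO cells were made with CRISPR/Cas9 and a guide to an early exon of *Hif1an* and then isolated by dilution to single cells. How many clones the FIH-KO libraries came from is not given in the sources used here. Differences that come with cloning and the loss of FIH therefore cannot be told apart. No source used here says that the 2 libraries of a group came from separate cultures, so the p-values below measure the spread between these libraries, which may be technical.

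In hypoxia the mRNAs of *P4ha1*, *P4ha2*, *Plod1* and *Plod2* rose in both genotypes, while those of *P4ha3* and *Loxl3* fell in both. FIH-KO cells held more *P4ha3*, *Plod1* and *Loxl3* mRNA than WT cells at either oxygen level, less *Plod2* in normoxia, and more *P4ha1* in hypoxia. *Lox* and *Loxl1* were near the limit of detection throughout.

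Collagen prolyl 4-hydroxylases and lysyl hydroxylases work in the endoplasmic reticulum, where they use oxygen, iron and 2-oxoglutarate to hydroxylate procollagen. Hydroxyproline holds the triple helix together at body temperature, and hydroxylysine carries sugars and sets which cross-links can form. Lysyl oxidases are copper enzymes that work outside the cell, where they use oxygen to turn lysines of collagen and elastin into the aldehydes that cross-link the fibers. FIH is itself an oxygen- and 2-oxoglutarate-dependent hydroxylase, which acts on the HIF alpha subunits, and *P4ha1*, *P4ha2*, *Plod2* and *Lox* are known HIF targets in many cell types.

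Library totals ran from 14519731 to 18177016 counts. At these depths 3 counts, the limit below which a gene was treated as not detected, correspond to 0.168 to 0.205 CPM, the count scaled to the library total with its TMM factor. Differences were tested with edgeR, and a gene is said to have passed, risen or fallen where its p, adjusted over the 13933 genes that passed a filter on low counts, was under 0.05. Of the 10 members 8 passed this filter. *Hif1an* was lower in both FIH-KO groups, at 34.8 and 37.7 CPM in normoxia and 45.5 and 51.0 CPM in hypoxia, than in WT cells, which held 84.6 and 82.3 CPM in normoxia and 90.2 and 84.0 CPM in hypoxia. Its transcript fell by 1.20 on the log2 scale in normoxia (SE 0.12, edgeR quasi-likelihood test, adjusted p = 3.1e-05). In hypoxia it fell by 0.85 (SE 0.12, adjusted p = 0.00031), so transcript remained in the libraries labelled FIH-KO. The authors report from Western blots that the FIH protein was absent, which these libraries do not measure. Of a list of well-known HIF target genes, all 13 that were tested rose in hypoxia in each genotype, with median log2 fold changes of 2.48 in WT and 2.33 in FIH-KO cells. Between FIH-KO and WT cells, 4 of the 13 were higher and 1 lower in normoxia, and 4 were higher and 0 lower in hypoxia, where 28.2% and 28.0% of all genes tested passed. The 5 calls in normoxia became 3 without either WT normoxia library and 9 with no filter on low counts, and the 4 in hypoxia became 2 without the second WT hypoxia or the first FIH-KO hypoxia library and 7 with no filter. The epithelial markers *Epcam* and *Cdh1* did not exceed 3 counts in any library. *Krt8* and *Krt18* were at 104 to 332 and 110 to 205 CPM, *Krt19* was at 0.652 to 14.7 CPM and *Krt7* reached 0.714 CPM. Of the 6 leukocyte markers 4, *Ptprc* among them, were at 3 counts or fewer everywhere, while *Cd68* was at 2.63 to 7.18 CPM and *Csf1r* reached 2.97 CPM. Of the 4 endothelial markers *Kdr* and *Tie1* were at 3 counts or fewer everywhere, *Cdh5* reached 1.96 CPM and *Pecam1* 0.546 CPM, and their summed level was 0.296 to 0.321 CPM in WT normoxia, 1.77 to 2.47 in WT hypoxia, 0.179 to 0.224 in FIH-KO normoxia and 0.325 to 0.437 in FIH-KO hypoxia. The summed leukocyte markers were at 2.70 to 3.32 and 7.92 to 8.13 CPM in WT normoxia and hypoxia and at 4.31 to 5.24 and 3.84 to 9.18 CPM in FIH-KO normoxia and hypoxia. The part of such cells in the results was not tested. All 4 lung epithelium markers were at 3 counts or fewer everywhere. Of the 8 fibroblast markers, *Col3a1* carried most of the summed level, and *Thy1* was at 0 in all 8 libraries. *Pdgfra* was at 6.93 to 27.4 CPM. *Dcn*, *Pdgfrb*, *Col1a1*, *Lum* and *Col1a2* did not exceed 4.65, 2.12, 1.46, 0.655 and 0.560 CPM.

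The start of each member gene was located in GRCm39, and the 300 bases upstream of the start of its main transcript were searched for the core of the hypoxia response element, the letters ACGTG or GCGTG on either strand, which HIF is known to bind. At least 1 core was found in 7 of the 10 members, against 45.4% of the 21603 protein-coding promoters searched in the same way. There were 5 cores at *Plod3*, 4 at *Plod2*, 3 at *P4ha2*, 3 at *Lox*, 2 at *P4ha1*, 2 at *Loxl3*, 1 at *Plod1* and 0 at *P4ha3*, *Loxl1* and *Loxl2*. A match of these letters describes the sequence and is not a measured binding site. The promoters of *P4ha1* and *Loxl3* are printed whole because they hold the same number of cores in front of genes that moved in opposite directions in hypoxia. *P4ha1* starts at base 59159092 of chromosome 10 on the plus strand, and its window is chr10:59158792-59159091, with the cores in capitals 137 and 100 bases before the start.
P4ha1: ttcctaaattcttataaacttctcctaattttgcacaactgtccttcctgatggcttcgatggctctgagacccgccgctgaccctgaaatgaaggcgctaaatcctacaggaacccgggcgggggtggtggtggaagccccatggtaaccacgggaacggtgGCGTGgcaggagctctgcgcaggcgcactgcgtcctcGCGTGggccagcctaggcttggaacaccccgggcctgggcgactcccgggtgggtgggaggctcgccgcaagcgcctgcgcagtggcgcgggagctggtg
*Loxl3* starts at base 83011152 of chromosome 6 on the plus strand, and its window is chr6:83010852-83011151, with the cores 125 and 23 bases before the start.
Loxl3: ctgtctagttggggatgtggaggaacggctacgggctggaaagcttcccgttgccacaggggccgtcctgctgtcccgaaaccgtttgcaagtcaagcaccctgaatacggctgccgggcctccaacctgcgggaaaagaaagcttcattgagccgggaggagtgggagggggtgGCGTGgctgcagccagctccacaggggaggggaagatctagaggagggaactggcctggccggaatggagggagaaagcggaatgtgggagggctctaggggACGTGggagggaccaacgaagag
For the 4 other hydroxylases with at least 1 core, the 30 bases with the most cores are shown, on the strand of the gene. They are chr11:53991664-53991693 (plus strand) at *P4ha2*, chr4:148021237-148021266 (minus strand) at *Plod1*, chr9:92424158-92424187 (plus strand) at *Plod2* and chr5:137015763-137015792 (plus strand) at *Plod3*. The stretches at *P4ha2*, *Plod1* and *Plod2* lie inside the annotated gene, because other transcripts start further upstream than the main one. A core on the opposite strand reads CACGT or CACGC.
P4ha2: catcgcatACGTGcagcGCGTGgcggctcg
Plod1: gaggcgggcggagGCGTGcgcggcaccgcc
Plod2: gccccgGCGTGaggcggtgCACGTaggcgt
Plod3: ccggtgGCGTGcacacatacGCGTGcgcag

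**Figure D1:**
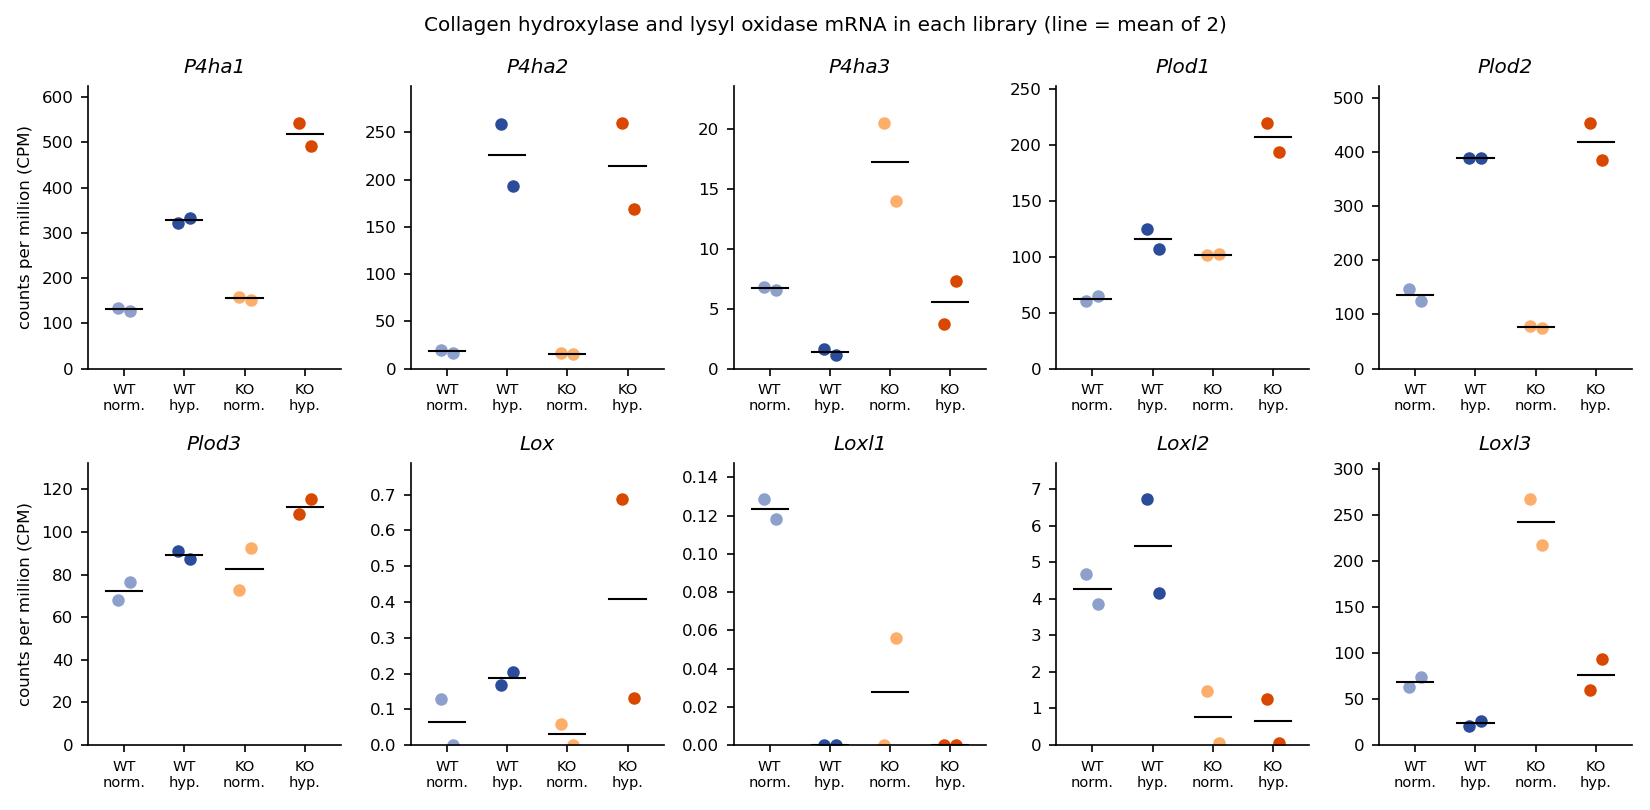
mRNA level of each of the 10 members in CPM (vertical axes, each starting at 0 with its own scale) in the 4 groups of WT and FIH-KO (KO) LLC cells in normoxia (norm.) and hypoxia (hyp.). Points are libraries, 2 per group, and lines are their means. *P4ha2* sits between 14.9 and 19.8 in the normoxia libraries and between 169 and 260.0 in the hypoxia libraries, and *Loxl3* shows the opposite direction.

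Prolyl 4-hydroxylase subunits did not move as a block. *P4ha1* (chr10:59159092-59209126, plus strand), the subunit of the main isoenzyme in most cells, was at 134 and 127 CPM in WT normoxia, 323 and 332 in WT hypoxia, 157 and 152 in FIH-KO normoxia and 543 and 493 in FIH-KO hypoxia. The 4 groups did not overlap, in the order WT normoxia, FIH-KO normoxia, WT hypoxia, FIH-KO hypoxia. Hypoxia raised it 2.51-fold in WT cells (log2 fold change 1.33, SE 0.11, adjusted p = 9.1e-06) and 3.35-fold in FIH-KO cells (1.74, SE 0.11, adjusted p = 1.6e-06). FIH-KO cells exceeded WT cells 1.58-fold in hypoxia (log2 fold change 0.66, SE 0.11, adjusted p = 0.00088), whereas in normoxia the log2 difference of 0.25 had a 95% interval of 0.02 to 0.48 and did not pass (adjusted p = 0.10). In bulk libraries, here and in all comparisons that follow, fewer cells that express a gene and less of its RNA per cell cannot be told apart.

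*P4ha2* (chr11:53981553-54022494, plus strand) encodes the subunit of a second isoenzyme, which is prominent in cartilage and bone. It showed the largest response to oxygen among the 8 members tested. Its level was 19.8 and 16.5 CPM in WT normoxia and 16.1 and 14.9 CPM in FIH-KO normoxia, and 259 and 193 CPM in WT hypoxia and 260.0 and 169 CPM in FIH-KO hypoxia. The libraries of each genotype thus separated by oxygen with no overlap, and the 2 genotypes overlapped in hypoxia. The rise was 12.5-fold in WT cells (log2 fold change 3.64, SE 0.21, adjusted p = 2e-06) and 13.8-fold in FIH-KO cells (3.79, SE 0.22, adjusted p = 1.1e-06). Only 0.782% and 0.502% of all genes tested had a higher log2 fold change in the WT and the FIH-KO comparison. Between genotypes the 95% interval of the log2 difference was -0.69 to 0.25 in normoxia (adjusted p = 0.48) and -0.48 to 0.33 in hypoxia (adjusted p = 0.80).

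*P4ha3* (chr7:99934686-99968907, plus strand), a catalytic subunit that is scarce in most tissues, went the other way. It was at 6.81 and 6.58 CPM in WT normoxia, 1.63 and 1.16 in WT hypoxia, 20.5 and 14.0 in FIH-KO normoxia and 3.75 and 7.29 in FIH-KO hypoxia. FIH-KO normoxia was the highest group and WT hypoxia the lowest, and FIH-KO hypoxia overlapped WT normoxia. Hypoxia lowered it 4.73-fold in WT cells (log2 fold change -2.24, SE 0.36, adjusted p = 0.00079) and 3.13-fold in FIH-KO cells (-1.64, SE 0.30, adjusted p = 0.0035). Against WT, FIH-KO cells were 2.57-fold higher in normoxia (log2 fold change 1.36, SE 0.29, adjusted p = 0.0048) and 3.90-fold higher in hypoxia (1.96, SE 0.37, adjusted p = 0.0022). The counts behind it were low, from 17 to 344 per library, and without the first FIH-KO normoxia library the normoxia difference was 1.04 and no longer passed (adjusted p = 0.069).

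The lysyl hydroxylases differed from one another in how far they followed oxygen and genotype. *Plod1* (chr4:147991574-148021356, minus strand), which hydroxylates lysines of the collagen helix, was at 60.7 and 64.6 CPM in WT normoxia, 124 and 107 in WT hypoxia, 101 and 102 in FIH-KO normoxia and 220.0 and 194 in FIH-KO hypoxia. No pair of groups overlapped, and each genotype was higher in hypoxia and each oxygen level higher in FIH-KO cells. The log2 fold change with hypoxia was 0.89 in WT (SE 0.12, adjusted p = 0.00021) and 1.03 in FIH-KO cells (SE 0.11, adjusted p = 0.00016). The log2 fold change of FIH-KO over WT cells was 0.70 in normoxia (SE 0.12, adjusted p = 0.001) and 0.84 in hypoxia (SE 0.11, adjusted p = 0.00033).

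*Plod2* (chr9:92424119-92490494, plus strand) hydroxylates the lysines at the collagen ends, the telopeptides, which leads to the stiffer type of cross-link. Its level was 146 and 125 CPM in WT normoxia, 77.7 and 74.6 in FIH-KO normoxia, 388 and 388 in WT hypoxia and 453 and 385 in FIH-KO hypoxia. FIH-KO cells thus started from a lower level in normoxia and reached the WT range in hypoxia. The genotypes differed in normoxia by a log2 fold change of -0.83 (SE 0.12, adjusted p = 0.00048), which is 1.78-fold lower in FIH-KO cells, and in hypoxia the 95% interval of the difference was -0.15 to 0.37 (adjusted p = 0.53). The rise with hypoxia was 2.87-fold in WT (log2 fold change 1.52, SE 0.12, adjusted p = 8.9e-06) and 5.50-fold in FIH-KO cells (2.46, SE 0.13, adjusted p = 5.2e-07).

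*Plod3* (chr5:137015827-137025502, plus strand), whose product also builds the sugars on hydroxylysine, passed in 1 of the 4 comparisons of groups. It was at 68.2 and 76.4 CPM in WT normoxia, 73.0 and 92.6 in FIH-KO normoxia, 91.1 and 87.4 in WT hypoxia and 109 and 115 in FIH-KO hypoxia. FIH-KO normoxia overlapped both WT groups. Its log2 fold change with hypoxia was 0.43 in FIH-KO cells (SE 0.13, adjusted p = 0.035) and 0.30 in WT cells (SE 0.13, adjusted p = 0.09), and between genotypes it came to 0.20 (normoxia, adjusted p = 0.28) and 0.33 (hypoxia, adjusted p = 0.075). The call in FIH-KO cells stood close to the threshold: the adjusted p was 0.22 without the first FIH-KO normoxia library, 0.096 without the second FIH-KO hypoxia library, 0.051 without the first, 0.054 and 0.055 without the first and second WT normoxia libraries, 0.058 without the second WT hypoxia library and 0.085 with only the FIH-KO libraries in the fit. *Plod3* overlaps *Znhit1* on the opposite strand, and the strand setting of the counting is not given in the sources used here, so reads of this pair cannot be told apart with certainty.

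Among the lysyl oxidases, *Loxl3* (chr6:83011152-83029543, plus strand), which mice need to form the palate and spine, had the highest level per length of the 4 members in every group. It was at 62.9 and 73.9 CPM in WT normoxia, 20.8 and 26.6 in WT hypoxia, 267 and 218 in FIH-KO normoxia and 59.8 and 93.3 in FIH-KO hypoxia. FIH-KO normoxia was the highest group and WT hypoxia the lowest, with FIH-KO hypoxia overlapping WT normoxia, as was the case for *P4ha3*. FIH-KO cells were 3.54-fold above WT cells in normoxia (log2 fold change 1.83, SE 0.19, adjusted p = 5.9e-05) and 3.24-fold in hypoxia (1.69, SE 0.20, adjusted p = 0.00014). Hypoxia lowered *Loxl3* 2.89-fold in WT (log2 fold change -1.53, SE 0.20, adjusted p = 0.00022) and 3.17-fold in FIH-KO cells (-1.66, SE 0.19, adjusted p = 0.00021). *Loxl3* overlaps *Htra2* on the opposite strand, which had 11665 counts in all libraries together against 13763 for *Loxl3*. As for *Plod3*, reads of this pair cannot be told apart with certainty. *Htra2* was lower in FIH-KO cells, by log2 fold changes of -0.40 in normoxia and -0.49 in hypoxia (adjusted p = 0.017 and 0.0065), the opposite direction to *Loxl3*. With hypoxia it fell like *Loxl3*, by log2 fold changes of -0.60 in WT and -0.69 in FIH-KO cells (adjusted p = 0.0016 and 0.0015).

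The summed level of the 8 fibroblast markers, mostly *Col3a1*, was likewise lowest in WT hypoxia and highest in FIH-KO normoxia. It was 1356 to 1752 CPM in WT normoxia, 605 to 739 in WT hypoxia, 1832 to 2194 in FIH-KO normoxia and 1330 to 1726 in FIH-KO hypoxia. The summed level of the 6 epithelial markers was 326 to 352 CPM in WT normoxia, 226 to 283 in WT hypoxia, 436 to 538 in FIH-KO normoxia and 334 to 447 in FIH-KO hypoxia. The sum of the 4 smooth muscle markers was 2.61 to 4.56, 0.729 to 0.751, 12.3 to 47.1 and 1.37 to 5.08 CPM in the same order of groups. Of these markers *Acta2* reached 46.1 CPM, while *Cnn1*, *Myh11* and *Tagln* did not exceed 0.112, 0.456 and 0.616 CPM. The high sums were thus those of 1 gene, and the FIH-KO normoxia libraries differed widely from each other. The part of these shifts in the levels of *P4ha3* and *Loxl3* was not tested.

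*Loxl2* (chr14:69846209-69933283, plus strand), which oxidizes lysines of basement membrane collagen, was scarce, and its FIH-KO libraries differed greatly within groups. It had 73 and 65 counts in WT normoxia, 120 and 61 in WT hypoxia, 25 and 1 in FIH-KO normoxia and 20 and 1 in FIH-KO hypoxia. Every FIH-KO library was below every WT library, and in each FIH-KO group the library numbered 1 held nearly all of the counts. The fitted log2 fold change of FIH-KO over WT was -2.48 in normoxia (SE 0.78, adjusted p = 0.032) and -3.02 in hypoxia (SE 0.80, adjusted p = 0.014). These calls rested on single libraries. In normoxia the value was -2.36 without the first WT library (adjusted p = 0.13), -2.64 without the second (adjusted p = 0.079), -1.54 without the second FIH-KO library (adjusted p = 0.14) and -6.09 without the first. In hypoxia it was -2.60 without the first WT library (adjusted p = 0.10), -2.12 without the second FIH-KO library (adjusted p = 0.053) and -6.20 without the first. DESeq2 gave adjusted p = 0.29 for the normoxia and adjusted p = 0.16 for the hypoxia comparison. Between oxygen levels the 95% interval of the log2 fold change ran from -1.02 to 1.73 in WT and from -2.33 to 1.96 in FIH-KO cells. *Loxl2* overlaps *R3hcc1* on the opposite strand, which had 4202 counts in all libraries together against 366 for *Loxl2*. *R3hcc1* was higher in FIH-KO cells by a log2 fold change of 0.60 in hypoxia (adjusted p = 0.0048), with 0.14 in normoxia (adjusted p = 0.46). With hypoxia it changed by -0.75 in WT and -0.28 in FIH-KO cells (adjusted p = 0.0012 and 0.15). Reads of this pair cannot be told apart with certainty either.

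*Lox*, the founding member of the family, had 2 and 0 counts in WT normoxia, 3 and 3 in WT hypoxia, 1 and 0 in FIH-KO normoxia and 11 and 2 in FIH-KO hypoxia. *Loxl1* (chr9:58195014-58220495, minus strand), which acts mainly on elastin, had 2 and 2 counts in WT normoxia, 1 count in the second FIH-KO normoxia library and 0 in the other 5 libraries. Neither passed the filter on low counts, so neither was tested. The first FIH-KO hypoxia library was the only one with more than 3 counts of *Lox*, and a change of *Lox* with oxygen or genotype was not detectable at this depth. *Loxl4*, the remaining paralog, belonged to a wider list of collagen genes described below.

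Levels were compared between genes as CPM per kilobase of exonic sequence. Within the prolyl 4-hydroxylases *P4ha1* was highest in all 4 groups, with 83.8% of the family's sum in WT normoxia and 66.0% in WT hypoxia. The share of *P4ha2* went from 8.63% to 33.5% in WT cells and from 5.86% to 22.9% in FIH-KO cells, while that of *P4ha3* went from 7.60% to 0.493% and from 15.4% to 1.47%. The summed level of the family rose from 24.05 to 76.8 CPM per kilobase in WT and from 30.4 to 106 in FIH-KO cells. Within the lysyl hydroxylases *Plod2* was highest in WT normoxia (53.6%), WT hypoxia (69.5%) and FIH-KO hypoxia (62.0%). In FIH-KO normoxia *Plod3* had 37.1%, *Plod2* 33.1% and *Plod1* 29.8% of the sum, and the ranges of *Plod3* and *Plod2* over the 2 libraries overlapped. *Loxl3* made up 94.6%, 82.9%, 99.7% and 98.5% of the lysyl oxidase members in WT normoxia, WT hypoxia, FIH-KO normoxia and FIH-KO hypoxia. This sum leaves out *Loxl4*, which in WT hypoxia was at 1.90 CPM per kilobase against 5.07 for *Loxl3*. The shares depend on the length chosen. With the main transcript's length, an alternative chosen after seeing the data, the share of *P4ha2* was 14.7% in place of 8.63% in WT normoxia, 47.3% in place of 33.5% in WT hypoxia, 10.4% in place of 5.86% in FIH-KO normoxia and 34.7% in place of 22.9% in FIH-KO hypoxia, and that of *P4ha3* was 0.276% in place of 0.493% in WT hypoxia and 0.894% in place of 1.47% in FIH-KO hypoxia. The summed level of the family was then 54.02 and 208 CPM per kilobase in WT and 65.3 and 268 in FIH-KO cells, in normoxia and hypoxia. By group means the highest member was the same with both lengths, but in WT hypoxia the ranges of *P4ha1* (48.3% to 56.5%) and *P4ha2* (43.3% to 51.4%) then overlapped.

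**Figure D2:**
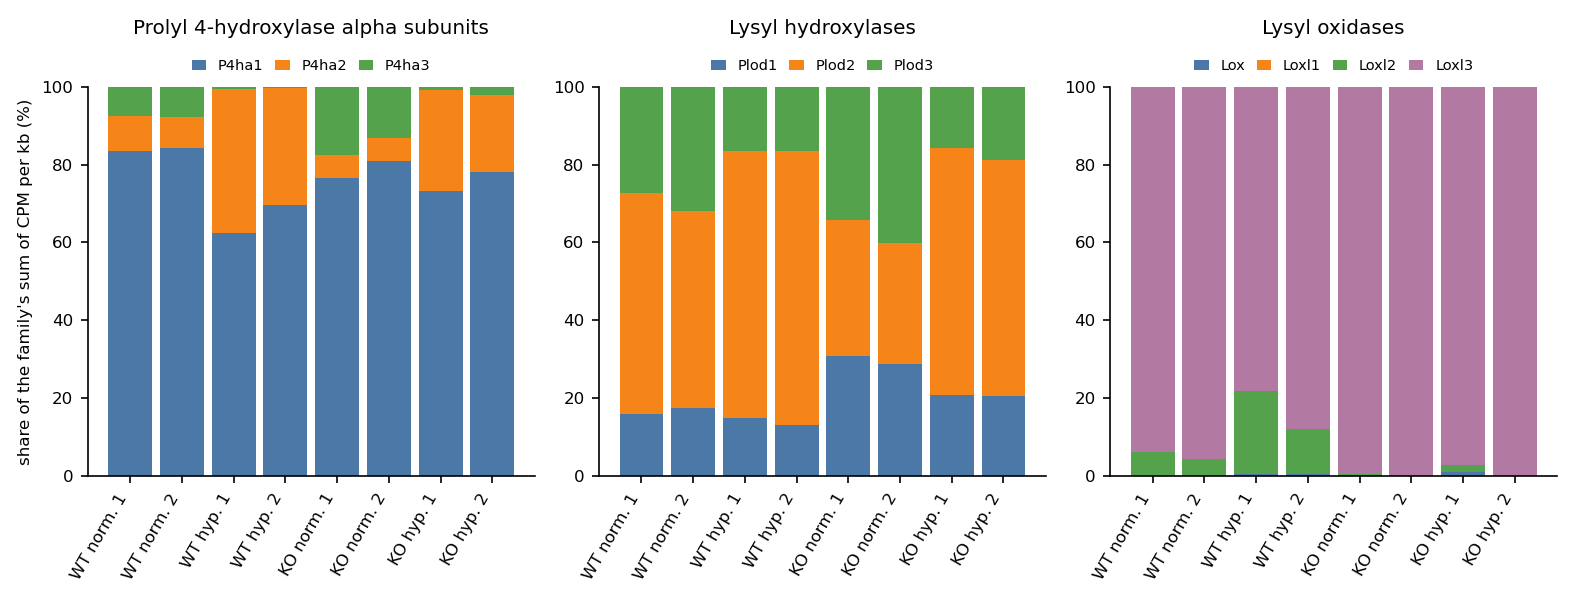
Share of each member in its family's sum of CPM per kilobase of exonic sequence (vertical axis, percent), in each of the 8 libraries of WT and FIH-KO (KO) cells in normoxia (norm.) and hypoxia (hyp.). *P4ha2* takes a larger share in hypoxia in both genotypes, the 3 lysyl hydroxylases are closest to one another in FIH-KO normoxia, and *Loxl3* fills most of every lysyl oxidase bar, which leaves out *Loxl4*.

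Hypoxia against normoxia answers how the enzymes respond to oxygen in each genotype. In WT cells 4 members were higher (*P4ha1*, *P4ha2*, *Plod1* and *Plod2*), 2 were lower (*P4ha3* and *Loxl3*) and 2 did not pass. Of all genes tested, 32.4% passed in this comparison, 16.9% higher and 15.5% lower. In FIH-KO cells the same 6 genes passed in the same directions and *Plod3* was higher as well, which makes 5 higher, 2 lower and 1 that did not pass, where 16.8% of all genes passed, 8.84% higher and 8.0% lower. The members' median log2 fold change was 0.62 in WT and 0.73 in FIH-KO cells, beside 0 and -0.03 over all genes. The libraries of the 2 oxygen levels did not overlap for 7 of the 8 members in WT and in FIH-KO cells, the exception in both being *Loxl2*. Over all genes the libraries did not overlap for 70.8% in WT and 55.2% in FIH-KO cells, so a lack of overlap was common among genes in general.

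**Figure D3:**
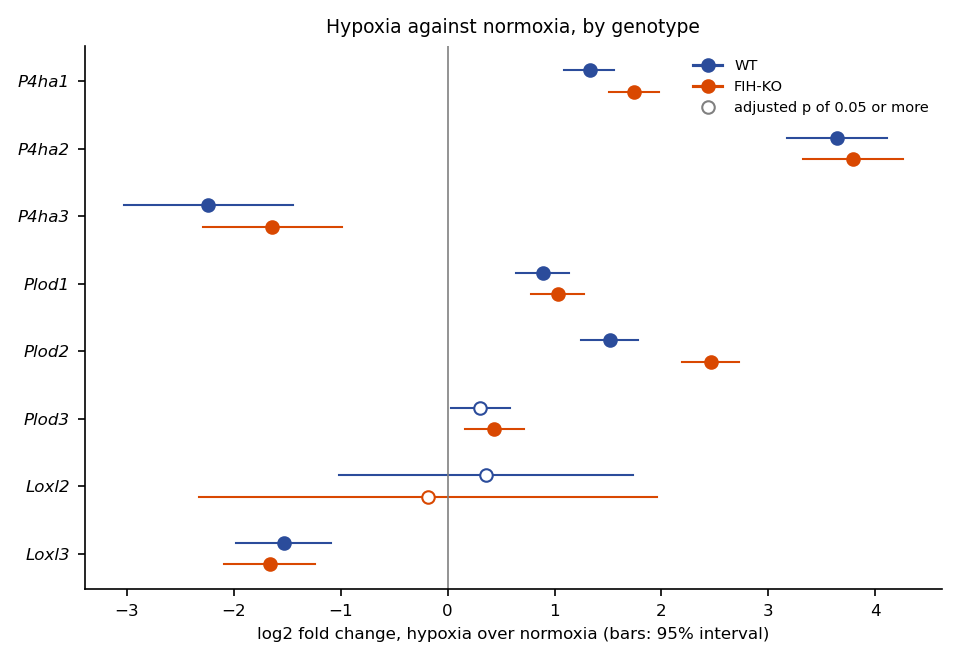
Log2 fold change of hypoxia over normoxia (horizontal axis) for the 8 members tested, in WT and FIH-KO cells, from the edgeR fit, with bars for the 95% interval. Filled points passed at an adjusted p under 0.05. *P4ha2* lies furthest to the right, at 3.64 and 3.79, *P4ha3* and *Loxl3* lie to the left of 0, and the bars of *Plod2* in the 2 genotypes do not overlap.

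FIH-KO against WT cells compares the enzymes between clone-derived FIH-KO cells and WT cells at the same oxygen level. In normoxia 3 members were higher (*P4ha3*, *Plod1* and *Loxl3*), 2 lower (*Plod2* and *Loxl2*) and 3 did not pass, where 28.2% of all genes passed, 15.2% higher and 13.0% lower. In hypoxia 4 were higher (*P4ha1*, *P4ha3*, *Plod1* and *Loxl3*), 1 lower (*Loxl2*) and 3 did not pass, where 28.0% of all genes passed, 14.1% higher and 13.9% lower. The members' median log2 fold change was 0.22 in normoxia and 0.49 in hypoxia, beside 0 and -0.03 over all genes. The libraries of the genotypes did not overlap for 7 members in normoxia and 6 in hypoxia, and over all genes for 69.4% and 61.7%. This comparison in normoxia and that of hypoxia in WT cells share the WT normoxia libraries, so their values are set side by side and were not correlated.

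**Figure D4:**
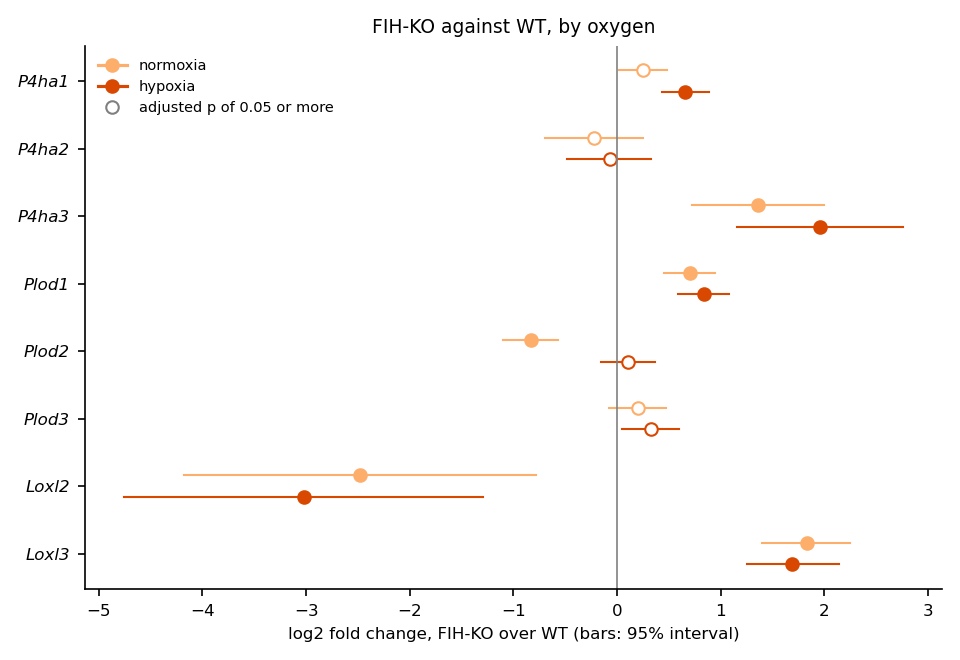
Log2 fold change of FIH-KO over WT cells (horizontal axis) for the 8 members tested, in normoxia and in hypoxia, from the edgeR fit, with bars for the 95% interval. Filled points passed at an adjusted p under 0.05. *Plod2* lies at -0.83 in normoxia and 0.11 in hypoxia, and *Loxl2* has the widest bars.

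Whether hypoxia acted differently in the 2 genotypes was tested as the difference of its log2 fold change, FIH-KO minus WT. No member passed, and 0% of all genes passed with edgeR at an adjusted p under 0.05. At an unadjusted p under 0.05 there were 925 genes (6.64%), among them *Plod2* and *P4ha1*. Among the members tested *Plod2* had the largest difference in relation to its error, 0.94 (SE 0.17, 95% interval 0.57 to 1.31, unadjusted p = 0.00012, adjusted p = 0.19). It passed with DESeq2 (0.96, adjusted p = 0.00096), which called 37 genes in all. It also passed with no filter on low counts (0.96, adjusted p = 7.1e-05), where 143 genes were called, and without the first FIH-KO hypoxia library (0.88, adjusted p = 0.049), where 39 were. Under every other alternative run *Plod2* did not pass. *P4ha1* differed by 0.41 (SE 0.15, unadjusted p = 0.016, adjusted p = 0.61). The 95% intervals of the other members ran from -0.47 to 0.77 for *P4ha2*, -0.43 to 1.63 for *P4ha3*, -0.21 to 0.49 for *Plod1*, -0.26 to 0.52 for *Plod3*, -3.09 to 2.01 for *Loxl2* and -0.73 to 0.47 for *Loxl3*.

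Some substrates of these enzymes, the fibrillar collagen chains and elastin, were followed as a list of 12 genes, of which 8 were tested. Other collagens, such as those of the basement membrane, were not in this list. *Col3a1*, the chain of type III collagen, was the most abundant of the list. It was at 1325 and 1722 CPM in WT normoxia, 588 and 714 in WT hypoxia, 2171 and 1806 in FIH-KO normoxia and 1320 and 1707 in FIH-KO hypoxia. WT hypoxia was the lowest group, with a log2 fold change of -1.23 with hypoxia in WT cells (SE 0.18, adjusted p = 0.00036) and of 1.22 for FIH-KO over WT cells in hypoxia (SE 0.18, adjusted p = 0.00047). *Col5a1*, a chain of type V collagen, was higher in FIH-KO cells by log2 fold changes of 0.68 in normoxia and 0.84 in hypoxia (adjusted p = 0.0061 and 0.0018), with values of -0.06 and 0.10 for hypoxia in WT and FIH-KO cells that did not pass. *Col5a3* rose with hypoxia by log2 fold changes of 1.39 in WT and 0.89 in FIH-KO cells (adjusted p = 0.0019 and 0.03), and *Col11a2* by 1.89 and 1.27 (adjusted p = 0.0028 and 0.044). *Col1a1* and *Col1a2*, the chains of type I collagen, did not exceed 1.46 and 0.560 CPM in any library. In all, FIH-KO cells had 3 of the 8 higher and 0 lower in each oxygen condition, where 28.2% and 28.0% of all genes passed, and hypoxia had 2 higher and 1 lower in WT and 2 higher and 0 lower in FIH-KO cells, where 32.4% and 16.8% passed. The median log2 fold changes of the list were 0.56 and 0.58 for FIH-KO over WT in normoxia and hypoxia, and 0.01 and -0.49 for hypoxia in WT and FIH-KO cells. The 3 calls in normoxia became 1 without the first WT normoxia library. The 2 calls for hypoxia in FIH-KO cells became 1 without the second WT normoxia, the first or second WT hypoxia or the first FIH-KO normoxia library, and 0 without the second FIH-KO normoxia or the first FIH-KO hypoxia library.

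Of 37 other genes of collagen folding, secretion, processing and turnover, 29 were tested. In hypoxia 4 rose and 9 fell in WT cells, and 2 rose and 8 fell in FIH-KO cells, with median log2 fold changes of -0.16 and -0.27, where 32.4% and 16.8% of all genes passed. *P4hb*, which encodes the partner subunit of the 3 P4ha proteins, rose by log2 fold changes of 0.80 in WT and 0.89 in FIH-KO cells (adjusted p = 0.00076 and 0.00088), and *Mia2*, which helps procollagen leave the endoplasmic reticulum, rose by 0.74 and 0.66 (adjusted p = 0.00052 and 0.0021). *P3h1*, a prolyl 3-hydroxylase, rose by 0.45 in WT cells (adjusted p = 0.044), with 0.33 in FIH-KO cells (adjusted p = 0.16). The genes that fell most in WT cells were *Fkbp7*, a prolyl isomerase of the endoplasmic reticulum, at -0.99, *Mrc2*, a receptor for collagen uptake, at -0.98, and *Pcolce*, which speeds removal of the procollagen C-propeptide, at -0.82 (adjusted p = 0.0052, 0.00036 and 0.0049). In FIH-KO cells those that fell most were *Ogn* (osteoglycin), at -2.40, *Bgn* (biglycan), at -1.52, and *Fkbp7*, at -0.73 (adjusted p = 0.00019, 0.046 and 0.03). The value of *Bgn* rested on few counts, 47 to 49 in FIH-KO normoxia and 6 to 24 in FIH-KO hypoxia. The 13 calls in WT cells became 8 without the second WT hypoxia library. The 10 calls in FIH-KO cells became 6 and 3 without the first and second FIH-KO normoxia libraries and 5 without the first FIH-KO hypoxia library.

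Between genotypes 8 of the same 29 genes were higher in FIH-KO cells and 2 lower in normoxia, and 11 were higher and 4 lower in hypoxia, with median log2 fold changes of 0.33 and 0.40, where 28.2% and 28.0% of all genes passed. *Mrc2* was higher by 0.64 and 0.96 (adjusted p = 0.0043 and 0.00049), *Pcolce* by 0.70 in normoxia (adjusted p = 0.012), and *Loxl4* by 0.94 in hypoxia (adjusted p = 0.0086). *Loxl4* was at 17.3 and 21.6 CPM in WT normoxia, 11.7 and 11.1 in WT hypoxia, 26.5 and 33.8 in FIH-KO normoxia and 16.9 and 26.9 in FIH-KO hypoxia, the same order of group means as *Loxl3*. Its log2 fold change with hypoxia was -0.77 in WT (adjusted p = 0.021) and -0.46 in FIH-KO cells (adjusted p = 0.17). *Ogn* had 4 and 9 counts in WT normoxia and 1 and 2 in WT hypoxia, against 290 and 302 in FIH-KO normoxia and 41 and 60 in FIH-KO hypoxia (adjusted p = 2.1e-06 and 5.9e-05), and no fold is given because its WT counts are so few. *Bgn* was lower in FIH-KO cells by log2 fold changes of -2.56 in normoxia and -3.98 in hypoxia (adjusted p = 0.00036 and 5.7e-05). Its counts were few in FIH-KO hypoxia, at 6 to 24, against 188 to 314 in WT hypoxia. *P3h2*, another prolyl 3-hydroxylase, was lower by log2 fold changes of -1.50 and -1.41 (adjusted p = 0.00067 and 0.0011). *Adamts14*, which removes the N-propeptide, was lower by -0.47 in hypoxia (adjusted p = 0.048). The 10 calls in normoxia became 3 and 5 without the first and second WT normoxia libraries and 6 without the second FIH-KO normoxia library.

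**Figure D5:**
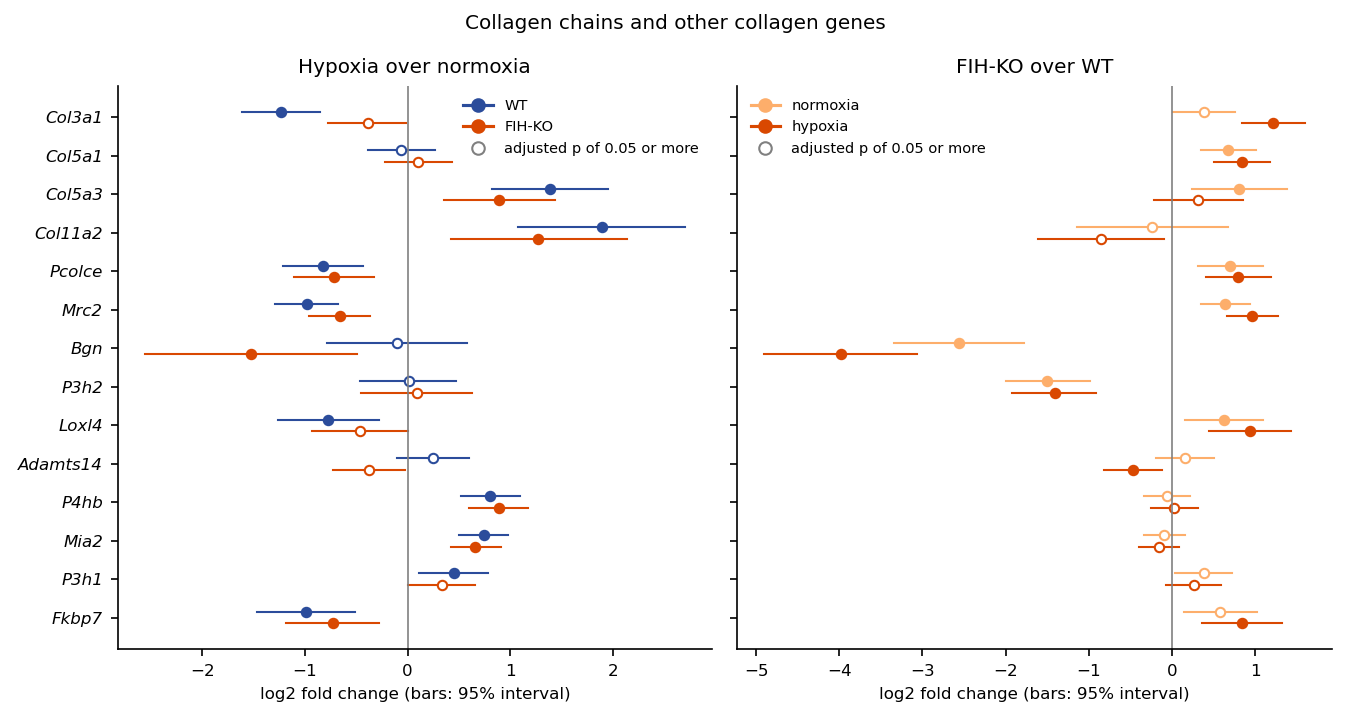
Log2 fold change (horizontal axes) of hypoxia over normoxia in WT and FIH-KO cells, left, and of FIH-KO over WT cells in normoxia and hypoxia, right, for 4 collagen chains and the named genes of collagen processing other than *Ogn*, with bars for the 95% interval. Filled points passed at an adjusted p under 0.05. *P4hb* and *Mia2* lie to the right of 0 with hypoxia and near 0 between genotypes, and *Bgn* lies furthest to the left between genotypes.

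The FIH-KO cells derive from single cells. The differences between genotypes were therefore set beside those of the 10 tested genes nearest to each member on its chromosome. *P4ha3* lay above all 10 neighbors, whose values spanned -0.32 to 0.77 at the high and -0.76 to 0.41 at the low oxygen level. *Loxl3* lay above its neighbors in normoxia, where the highest was 1.22, and within their range in hypoxia, where the highest was 2.43. *Plod1*, at 0.70 and 0.84, stood beside neighbors of up to 0.72 and 0.58. *Plod2*, at -0.83 in normoxia, lay inside the range of its neighbors, -1.83 to 1.10, of which 3 were lower and 1 higher. *P4ha1* was also inside the range, with neighbors from 0.08 to 1.27 in hypoxia and a median of 0.29. *P4ha2*, which did not pass in either condition, sat among neighbors with medians of -0.46 and -0.61, of which 5 and 6 were lower. *Loxl2* lay inside the range in normoxia, where the lowest neighbor was -4.55, and below it in hypoxia, where the lowest was -1.69. *Plod3*, at 0.20 and 0.33, sat among neighbors with medians of 0.20 and 0.26, of which 3 and 4 were higher and 0 lower. The part of chromosomal differences of the cloned cells in these values was not tested.

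Over the 8 libraries, which fall into only 4 groups, the log2 CPM of *P4ha1* was most like that of *Ankrd37* (Pearson's r = 0.990), *Kremen1* (0.986) and *Ifi204* (0.985), the last being one of a cluster of similar genes between which reads can be split. *Plod2* was most like *Mgarp* (0.995), *Tpi1* (0.994) and *Slc16a3* (0.991). Among the members *P4ha2* was most like *Plod2* (r = 0.97), and *P4ha3* was most like *Loxl3* (r = 0.97). These are descriptions of shared group differences, with n = 8 libraries and no test.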

How the data were processed

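RNA-Seq libraries of WT and FIH-KO LLC cells were made with a stranded, poly(A)-based kit. Per the methods of the authors, bcl2fastq, STAR (GRCm39) and HTSeq served for demultiplexing, alignment and counting, and the deposited values are these raw counts, not normalized. The labels also list GRCm38. The annotation, the strand setting and the handling of multimapping reads are not given in the sources used here. Groups came from the sample labels, and every library column was used.

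Counts were analyzed in R 4.3.3 with edgeR 4.0.16: filterByExpr (13933 genes kept), TMM factors (0.983 to 1.016), 1 quasi-likelihood model with 4 group means, and Benjamini-Hochberg adjustment over all tested genes, with a threshold of 0.05. The common biological coefficient of variation was 11.7%. SE is the log2 fold change divided by the square root of F. Positions, lengths and promoters came from GENCODE for GRCm39 (97.97% of identifiers matched). Plots were drawn with matplotlib in Python.

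The members and gene lists were chosen with earlier results of these data known. Named were all 10 members, *Hif1an*, up to 3 collagen pathway genes that rose and 3 that fell most per comparison, collagen chains, both with a mean of at least 50 counts, and the 3 genes most like *P4ha1* and *Plod2*. *Col1a1*, *Col1a2*, the marker genes and the overlapping genes were named after their values were seen. Alternatives were DESeq2 1.42.0, RLE or upper-quartile factors, other filters on low counts, only the libraries compared, a replicate block and each library left out. Same-group libraries differed by more than sampling noise, at chi-square values of 5.66 to 23.3 per degree of freedom.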

Additional observations from a re-analysis of the deposited data

How the results depend on the processing

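The members called stayed within 1.5 times the reported number in the 4 comparisons of groups under each alternative run. Across the alternatives other than leaving out a library there were 4 to 5 in FIH-KO against WT in normoxia, 4 to 6 in hypoxia, 6 to 7 for hypoxia in WT and 6 to 7 in FIH-KO cells. For the difference of the hypoxia effect the count was 1 in place of 0 with no filter and 1 with DESeq2, and 0 to 1 with each library left out.

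Over all alternatives 551 recomputed log2 fold changes of members kept their direction and their side of the threshold, 15 lost their call (*Loxl2*, *P4ha3* and *Plod3*), 7 gained one (*Plod3* and *Plod2*) and 14 changed sign. *Plod3* gained a call between genotypes in hypoxia with no filter (adjusted p = 0.045) or without either FIH-KO normoxia library (adjusted p = 0.03 and 0.031), and for hypoxia in WT cells with only the WT libraries fitted (adjusted p = 0.023). The members' fold changes kept their direction under all alternatives except when a library was left out. The range then crossed 0 for *Plod3* between genotypes in normoxia (-0.01 to 0.34), *P4ha2* between genotypes in hypoxia (-0.38 to 0.21), *Loxl2* for hypoxia in WT (-0.07 to 0.65) and in FIH-KO cells (-3.37 to 3.42), and for the difference of the hypoxia effect in *P4ha2* (-0.13 to 0.44), *Loxl2* (-3.69 to 3.10) and *Loxl3* (-0.48 to 0.22). None of these values was called.

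Of the lists, the pathway genes called between genotypes in normoxia numbered 6 with at least 10 counts in every library, and 3 to 14 with each library left out. Between genotypes in hypoxia they ranged from 10 to 16, for hypoxia in WT cells from 8 to 16 and in FIH-KO cells from 3 to 12, with 5 where only the libraries compared were fitted. The substrate genes called were 6 in hypoxia between genotypes with no filter, 0 for hypoxia in FIH-KO cells with only the libraries compared, and 1 for the difference with no filter. With each library left out they ranged from 1 to 3 and 2 to 4 between genotypes in normoxia and hypoxia, and from 0 to 3 for hypoxia in FIH-KO cells. The HIF targets called between genotypes were 9 in normoxia and 7 in hypoxia with no filter, and 3 to 7 and 2 to 6 with each library left out. For the difference they were 5 with no filter, 5 with DESeq2, 1 with the replicate block and 0 to 2 with each library left out. The cause was not tested.

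Deviations of same-numbered libraries correlated at -0.01 to 0.19 between groups, the highest being between WT hypoxia and FIH-KO hypoxia. Such correlations cannot tell whether libraries of the same number shared a culture or a batch. With the replicate block 4080, 4039, 4593 and 2479 genes were called in the 4 comparisons, beside 3933, 3896, 4509 and 2345 without it, and it changed no call of a member. With a library left out, calls over all genes fell as low as 1735, 2170, 2124 and 1097. Depth limits *Lox* and *Loxl1*, which were not tested.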
